A study of Homo sapiens with 8 samples.

Results

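Heat shock genes, 10 in number, were followed in floating tumour spheres (pneumospheres) of lung cancer lines: HSPA1A, HSPA1B, HSPA8, HSPH1, DNAJB1, HSPB1, HSP90AA1, HSPD1, HSPE1 and BAG3. They were chosen by gene name from a set listed as cytosolic heat shock genes. Each of the 10 names had 1 row among the 60106 genes of the count files, and all 10 passed the filter on low counts. The proteins of HSPD1 and HSPE1 work inside mitochondria, so "cytosolic" holds for the products of the other 8 genes. The files contain 8 RNA-seq libraries from 4 established non-small cell lung cancer lines, each with 1 library of treated and 1 of untreated spheres. Treated spheres were exposed for 15 min to PD-L1s at 25 µg/ml, with 0% fetal bovine serum in the medium. PD-L1s is a synthetic, soluble version of PD-L1, the ligand of the immune checkpoint receptor PD-1. Untreated spheres are labelled only as such, and the labels name no mock-handled group. An effect of PD-L1s and one of the handling during treatment therefore cannot be told apart. Spheres of both groups were grown in flasks to which cells hardly attach, in DMEM-F12 without serum and with B-27 supplement and the growth factors FGF and EGF. The labels call H1975, H820 and H23 adenocarcinoma and EBC1 squamous cell carcinoma. With 1 library per line and condition, the 4 lines are the replicates of the treatment, and p-values speak for these libraries only. The fit draws each gene's spread toward that of other genes. Its p-values, SEs and intervals therefore do not rest on a gene's own line ratios alone.

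Heat shock proteins are chaperones: they hold or refold proteins that lose their shape. In unstressed cells the transcription factor HSF1 is kept inactive by chaperones. When unfolded proteins draw these chaperones away, HSF1 trimers bind heat shock elements, arrays of inverted GAA units, and switch on transcription of chaperone genes within minutes. HSPA8 and HSP90AA1 are also made in unstressed cells, and tumour cells commonly carry high levels of chaperones.

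The start regions of 5 members are shown, each with letters of a heat shock element, the kind of site that HSF1 is known to bind. Searched were the pairs GAANNTTC and TTCNNGAA, each its own reverse complement, and the triple GAANNTTCNNGAA on both strands, which contains overlapping pairs. At least 1 pair was found in 7 of the 10 members (8 of their 14 RefSeq windows of 300 bases), against 13.49% of all 35116 windows. DNAJB1 and HSPB1 also held pairs but are not shown. The triple occurred in HSPA8, HSP90AA1 and HSPD1, against 0.49% of all windows. The box CCAAT was present for 5 members and in 34.61% of windows, and TATAAA for 2 members and in 11.53%. HSPH1, HSPE1 and BAG3 had no pair within the windows searched. The HSPE1 window, chr2:197500129-197500428, lies outside the HSPD1 window given below, so it does not cover the triple found there. The sequences are the 250 bases before a start site in RefSeq, build GRCh38.p14, 5′ to 3′ on the gene's strand, with pairs and triples in capitals. They lie at chr6:31815293-31815542 on the plus strand for HSPA1A, chr6:31827488-31827737 on the plus strand for HSPA1B and chr11:123062137-123062386 on the minus strand for HSPA8. The window of HSP90AA1 is chr14:102087045-102087294 and that of HSPD1 is chr2:197499841-197500090, both on the minus strand and each the second of 2 windows of the gene.
HSPA1A: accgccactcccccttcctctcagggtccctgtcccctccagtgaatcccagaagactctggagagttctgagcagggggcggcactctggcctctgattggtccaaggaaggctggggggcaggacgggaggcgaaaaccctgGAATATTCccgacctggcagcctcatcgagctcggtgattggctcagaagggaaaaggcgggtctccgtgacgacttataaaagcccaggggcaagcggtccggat
HSPA1B: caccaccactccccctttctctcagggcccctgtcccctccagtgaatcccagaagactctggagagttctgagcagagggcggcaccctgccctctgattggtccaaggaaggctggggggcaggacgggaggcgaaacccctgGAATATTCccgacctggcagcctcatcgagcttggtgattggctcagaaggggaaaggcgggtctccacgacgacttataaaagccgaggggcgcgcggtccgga
HSPA8: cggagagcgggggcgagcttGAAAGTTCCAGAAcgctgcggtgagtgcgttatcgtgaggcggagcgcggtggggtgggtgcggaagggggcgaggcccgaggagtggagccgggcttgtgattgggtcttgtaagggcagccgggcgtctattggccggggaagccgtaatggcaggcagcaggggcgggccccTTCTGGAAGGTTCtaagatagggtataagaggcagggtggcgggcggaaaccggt
HSP90AA1: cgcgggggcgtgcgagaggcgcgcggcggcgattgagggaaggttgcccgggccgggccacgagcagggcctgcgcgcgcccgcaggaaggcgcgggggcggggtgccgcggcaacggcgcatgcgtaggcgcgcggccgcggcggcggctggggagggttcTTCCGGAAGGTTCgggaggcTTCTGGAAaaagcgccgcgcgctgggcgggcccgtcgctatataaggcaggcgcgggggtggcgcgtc
HSPD1: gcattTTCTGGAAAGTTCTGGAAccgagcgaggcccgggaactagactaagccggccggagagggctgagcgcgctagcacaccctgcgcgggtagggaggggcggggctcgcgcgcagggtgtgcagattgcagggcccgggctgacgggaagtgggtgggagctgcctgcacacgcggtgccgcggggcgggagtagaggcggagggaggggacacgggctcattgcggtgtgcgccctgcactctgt

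HSPA1A and HSPA1B each had a single pair, 106 and 105 bases before the start. In HSPA8 triples began 230 and 55 bases before it, and in HSP90AA1 a triple began 88 bases before it, followed by a pair at 68. The array of HSPD1 began 245 bases before its start. A match is a description of the letters and not of binding.

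Depth ran from 5559870 to 27524854 counts per library. The treated library was 4.67 times as deep as the untreated one in EBC1 and 4.28 times in H820, against 0.936 times in H1975 and 0.766 times in H23. The share of counts in mitochondrial protein genes was 2.30% in treated and 3.78% in untreated H820, and 0.849% and 1.43% in EBC1. In H1975 it was 2.35% in treated and 2.21% in untreated spheres, and in H23 1.98% and 1.89%. Epithelial markers (5 of 5 with counts in each library) summed to 1658 to 4090 CPM (counts relative to the TMM-scaled library total) in H1975, H820 and EBC1 but only 143 CPM in treated and 145 CPM in untreated H23. Squamous markers summed to 6.14 CPM in treated and 6.73 CPM in untreated EBC1, the line labelled squamous, where KRT5 and DSG3 had 0 counts. The same list summed to 97.5 and 92.4 CPM in treated and untreated H1975, of which TP63 made 86.7 and 87.2 CPM. The immune markers PTPRC and CD3E had at most 0.402 CPM in any library, while the immune list summed to 132 CPM in treated and 67.7 CPM in untreated H820, of which CD68 made 131 and 65.9 CPM. The 10 members together held 0.204% to 0.445% of a library's counts. Counting intervals given below cover counting error only.

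The first comparison asks whether treated spheres showed a heat or handling stress response at 15 min. No later time was sampled, so a rise of these transcripts after 15 min would not be seen. None of the 10 members passed the test. Their fitted log2 changes, PD-L1s minus untreated with the line as a block, ran from -0.13 for HSPA8 to 0.18 for DNAJB1. The count of members called was 0 of 10 by edgeR's quasi-likelihood test (Benjamini-Hochberg adjusted p under 0.05 over 24185 genes), where 0.0372% of all genes were called. No member had an unadjusted p under 0.05, and DESeq2 with the same design also called 0. The median change of the members was 0.03, against 0.04 over all genes tested. Of the 10 members 6 were above 0, as were 14496 of all 24185 genes tested. With unadjusted 95% intervals from this moderated fit, a 2-fold change in either direction lay outside the interval of all 10 members. The highest upper bound was 1.40-fold, for HSPB1, and the lowest bound 0.744-fold, for HSPA8.

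**Figure D1:**
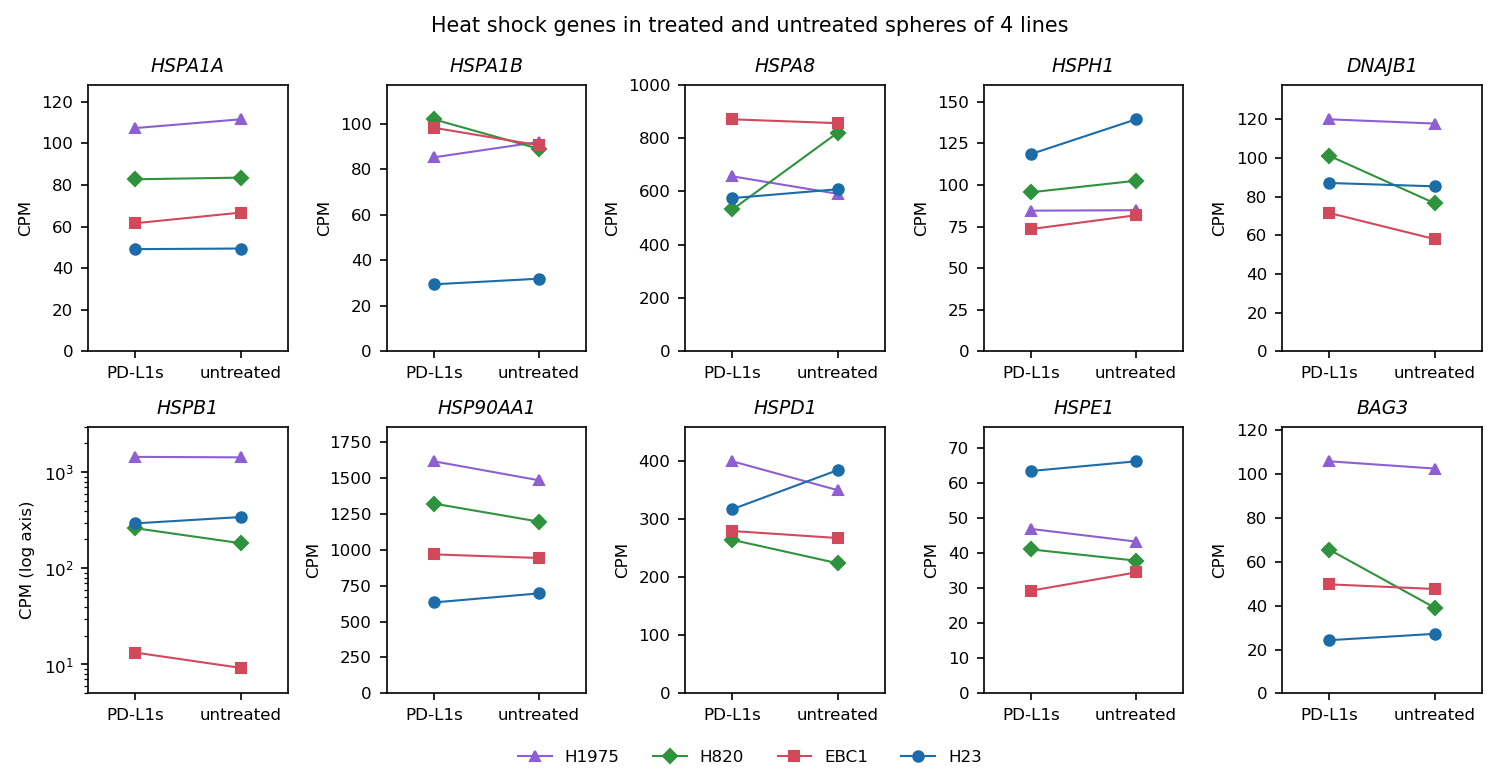
Level of each heat shock gene in CPM (vertical axis; log axis for HSPB1) in PD-L1s and untreated spheres (horizontal axis), 1 point per library and 1 colour and marker per line, with a line joining the 2 libraries of a cell line. The joining lines are mostly flat, while the lines of cells lie far apart for HSPB1 (1449 to 13.3 CPM in treated spheres).

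HSPA1A and HSPA1B encode the major stress-inducible HSP70, the classic readout of heat stress. HSPA1A had 107 CPM in H1975, 82.7 in H820, 61.6 in EBC1 and 49.1 in H23 with PD-L1s, against 112, 83.5, 66.7 and 49.4 CPM in the untreated spheres of these lines. HSPA1B had 85.2 CPM in H1975, 102 in H820, 98.2 in EBC1 and 29.5 in H23 with PD-L1s, against 92.0, 88.9, 90.5 and 31.9 CPM untreated. The treated and untreated libraries overlapped for both genes, and the 2 libraries of each line lay close together. The log2 change of HSPA1A was -0.05 ± 0.100 (SE, 95% interval -0.26 to 0.16) and that of HSPA1B 0.02 ± 0.105 (-0.20 to 0.24), both with an adjusted p of 0.9995 by edgeR's quasi-likelihood test. HSPA1A was lower in 4 of 4 treated lines, by at most 0.11 on the log2 scale. The 2 genes are near-identical copies 98.6% alike over 2152 bases, and a read pair that fits both can be counted for either, so their sum was also tested. The sum was 153.9 ± 52.1 CPM in treated and 153.6 ± 51.9 CPM in untreated spheres (SD over 4 lines), a log2 change of -0.0022 ± 0.106 with an adjusted p of 0.9997.

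The partners and helpers of HSP70 were next. DNAJB1, the HSP40 co-chaperone that delivers clients to HSP70, had 120 CPM in H1975, 101 in H820, 71.5 in EBC1 and 87.0 in H23 with PD-L1s, against 118, 76.6, 58.0 and 85.3 CPM untreated. It was higher in 4 of 4 treated lines, with a log2 change of 0.18 ± 0.108 (-0.04 to 0.41), which did not pass the test (unadjusted p = 0.1075, rank 2196 of 24185 genes, by edgeR's quasi-likelihood test). The ratio was 0.40 in H820 and 0.30 in EBC1, the lines with unequal depth, whose part in it was not tested, and 0.03 in H1975 and in H23. HSPH1, the HSP110 that exchanges nucleotides on HSP70, had 84.6 CPM in H1975, 95.7 in H820, 73.5 in EBC1 and 119 in H23 with PD-L1s, against 84.9, 103, 81.9 and 139.5 CPM untreated. It was the lower of each pair in 4 of 4 lines, at -0.12 ± 0.103 (-0.34 to 0.09), which did not pass the test. BAG3, a co-chaperone that couples HSP70 to small heat shock proteins and to autophagy, had 106 CPM in H1975, 65.6 in H820, 49.8 in EBC1 and 24.3 in H23 with PD-L1s, against 103, 39.1, 47.7 and 27.2 CPM untreated. Its change of 0.16 ± 0.128 (-0.11 to 0.43) rested on H820, where the ratio was 0.74, against 0.05, 0.06 and -0.16 in H1975, EBC1 and H23.

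HSPA8, the constitutive HSC70 that folds new proteins and uncoats clathrin vesicles, had 656 CPM in H1975, 532 in H820, 870.2 in EBC1 and 575 in H23 with PD-L1s, against 591, 820.1, 856 and 608 CPM untreated. H820 stood apart, with the treated library the lowest of the 8 and the untreated one the third highest. The change over lines was -0.13 ± 0.140 (-0.43 to 0.16). HSP90AA1, the inducible form of HSP90 and a chaperone of kinases and steroid receptors, had 1615 CPM in H1975, 1321 in H820, 967 in EBC1 and 633 in H23 with PD-L1s, against 1483, 1195, 942 and 696 CPM untreated. Treated libraries were the higher in 3 of 4 lines, by no more than 0.15 on the log2 scale, and the fitted change was 0.04 ± 0.130 (-0.23 to 0.32). HSPB1, the small heat shock protein HSP27 that holds unfolded proteins and binds actin, had 1449 CPM in H1975, 262 in H820, 13.3 in EBC1 and 294 in H23 with PD-L1s, against 1432, 183, 9.22 and 342.5 CPM untreated. Its ratio was 0.52 in both H820 and EBC1, 0.02 in H1975 and -0.22 in H23, and the fitted change of 0.18 ± 0.145 (-0.13 to 0.48) did not pass the test. The EBC1 value rests on 297 counts in treated and 48 counts in untreated spheres.

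HSPD1 and HSPE1 encode HSP60 and HSP10, the barrel and lid of the mitochondrial chaperonin. HSPD1 had 399 CPM in H1975, 264 in H820, 279 in EBC1 and 316 in H23 with PD-L1s, against 349, 224, 267 and 383 CPM untreated. HSPE1 had 47.0, 41.2, 29.4 and 63.6 CPM in the same treated lines, against 43.4, 37.9, 34.6 and 66.3 CPM untreated. Neither moved one way over the lines: the changes were 0.05 ± 0.122 and -0.01 ± 0.107. HSPE1 shares 192 exonic bases on its own strand with the readthrough gene HSPE1-MOB4, and pairs there were counted for both, so its level is uncertain.

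Within single lines there was no replicate check, and changes are described by the log2 ratio of CPM with a prior count of 5. Beyond 1.5-fold there were 2 member values, both in H820: BAG3 higher (0.74) and HSPA8 lower (-0.62). That is 2 of 10 members in H820, where 17.7% of genes moved as far (genes reaching 50 counts in 1 of the line's libraries). In the other lines it was 0 of 10, against 1.21% of genes in H1975, 9.5% in EBC1 and 1.65% in H23. The median ratio of the members was 0.04 in H1975, 0.17 in H820, 0.05 in EBC1 and -0.13 in H23. Above 0 were 7, 7, 7 and 1 of 10 members in these lines, against 11479, 13269, 14211 and 11452 of all 24185 genes. The treated H820 library was 4.28 times as deep as the untreated one and had a mitochondrial share of 2.30% against 3.78%; the part of either in these ratios was not tested.

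In the same libraries, 4 of 37 immediate early genes, a class transcribed within minutes of a growth or stress signal, were called higher. FOSB, which forms AP-1 with JUN proteins, had 26.2 CPM in H1975, 111 in H820, 159 in EBC1 and 224 in H23 with PD-L1s, against 3.62, 12.9, 51.9 and 25.9 CPM untreated. FOS, its relative, had 81.0, 157, 120 and 209 CPM in the same treated lines, against 18.0, 14.6, 54.0 and 45.5 CPM untreated. Both rose in 4 of 4 lines, by 2.65 ± 0.193 and 2.19 ± 0.218 on the log2 scale (adjusted p 1.54e-06 and 1.145e-04 by edgeR's quasi-likelihood test). CYR61 was called as well, at 0.91 ± 0.143 and higher in 4 of 4 lines (adjusted p 0.01485, edgeR's quasi-likelihood test). The call of CYR61 was lost without EBC1 and at a minimum count of 50, where FOS and FOSB were the 2 genes of the list called. With no replicate block CYR61 was not called either. DUSP1, a phosphatase that shuts off MAP kinases, rose by 1.03 ± 0.151 (adjusted p 0.00855). Its call was lost without EBC1 (adjusted p 0.117), at a minimum count of 50 (0.1055) and with no replicate block (1.0). EGR1, a zinc finger factor, missed the threshold at 1.48 ± 0.261 (adjusted p 0.0535, edgeR's quasi-likelihood test). It passed with library size only (0.00102), with no filter, and in H23 and H1975 only or EBC1 and H820 only. It also passed without H23 (0.00196), H820 (3.66e-05) or H1975 (0.02875). RLE scaling (0.0983), a minimum count of 50 (0.559), leaving out EBC1 (0.272), DESeq2 and no replicate block gave no call. With no replicate block FOS and FOSB lost their calls too. Of all genes tested, 0.0289% were called higher. Of the list's 37 genes, all tested, 36 were above 0, against 14496 of all 24185 genes, and the median was 0.37. The lower bound for FOS was 1.73 on the log2 scale, while the highest upper bound among the 10 members was 0.48. FOS ranked 2 of 24185 genes by p, and the list's median of 0.37 lay below that upper bound. The gap therefore holds for the most changed early genes and not for the list as a whole. Among the other inducible heat shock genes described next, HSPA6 had an upper bound of 0.96 and HSPB8 one of 0.69. In H820, where FOS and EGR1 had their largest ratios (3.41 and 3.22), the members ran from -0.62 for HSPA8 to 0.74 for BAG3, with HSPA1A at -0.01, HSPA1B at 0.20, DNAJB1 at 0.40 and HSPB1 at 0.52. HSPA6 and HSPB8 had ratios of 0.87 and 0.73 there.

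**Figure D2:**
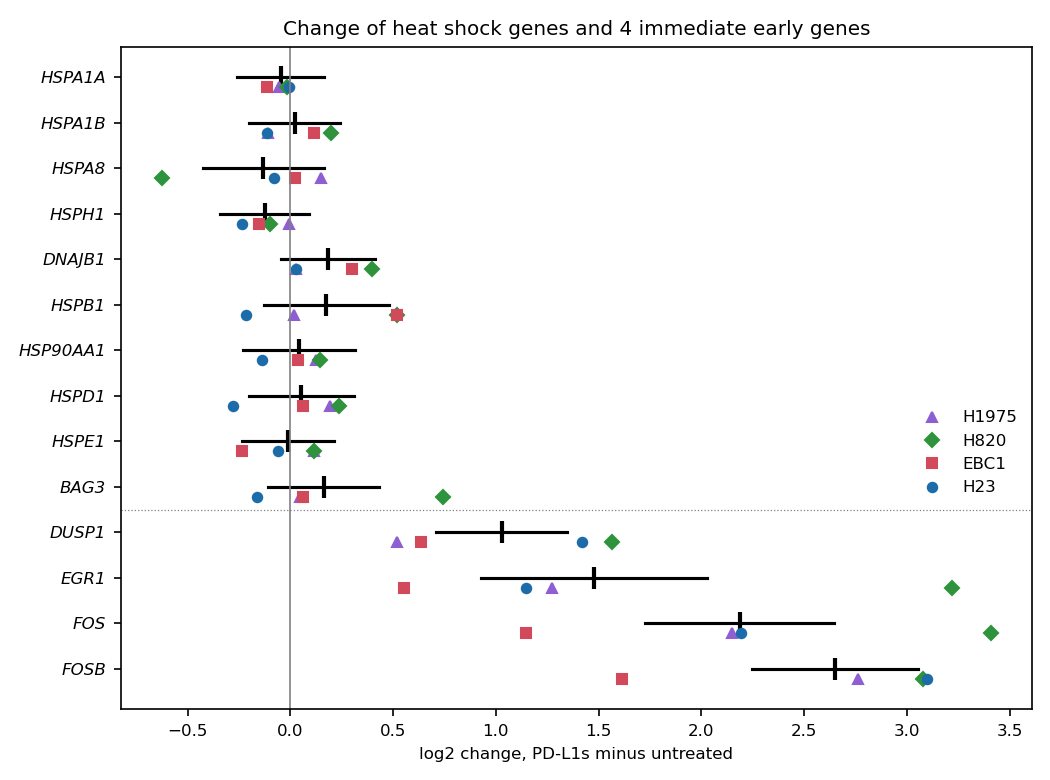
Log2 change, PD-L1s minus untreated (horizontal axis), of the 10 heat shock genes and, under the dotted line, 4 immediate early genes. Black bars are the fitted change (tick) with its unadjusted 95% interval over 4 lines, and coloured markers the ratio within each line. Intervals of all 10 heat shock genes cross 0 and reach at most 0.48, while that of FOS begins at 1.73. The median change of all 37 listed immediate early genes was 0.37.

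The other genes of the pathway did not pass the test either. Of 76 other genes in 5 lists, 75 were tested and 0 were called, by edgeR's quasi-likelihood test, and 0 had an unadjusted p under 0.05. CRYAB, a small heat shock protein, had 0 to 5 counts per library and was not tested. HSF1, the factor itself, had 50.2 CPM in H1975, 159 in H820, 98.1 in EBC1 and 117 in H23 with PD-L1s, against 55.4, 154.5, 71.9 and 126 CPM untreated, a change of 0.05 ± 0.116. Of the 5 heat shock factors and partners 4 were above 0, with a median of 0.03. Over all genes tested, 14496 of 24185 were above 0. HSF2, a second heat shock factor, had a log2 change of 0.03 ± 0.118, and HSF4 one of 0.25 ± 0.120 (unadjusted p = 0.0532 by edgeR's quasi-likelihood test). Among 23 genes listed as other inducible heat shock genes, CHAC1 included, the median was 0.03 and 13 were above 0. HSPA6, an HSP70 that is nearly silent without stress, had 6.51 CPM in H1975, 7.06 in H820, 0.762 in EBC1 and 0.905 in H23 with PD-L1s, against 4.93, 3.73, 0.769 and 0.883 CPM untreated. These were 17 to 152 counts in treated and 4 to 113 counts in untreated libraries, and the change of 0.45 ± 0.243 did not pass the test (adjusted p 0.9995). HSPB8, the partner of BAG3, had a change of 0.31 ± 0.180, the glutathione-degrading CHAC1 one of -0.31 ± 0.183 and the HSP90 co-chaperone FKBP4 one of 0.18 ± 0.111, none past the test.

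Of 28 constitutive chaperones and co-chaperones 18 were above 0 (14496 of 24185 over all genes), with a median of 0.03. The HSP70 co-chaperones BAG4 and BAG6 had changes of 0.17 ± 0.115 and 0.14 ± 0.117, and the HSP90 partner CDC37 and the HSP40 DNAJB14 had 0.10 ± 0.108 and 0.10 ± 0.112. The 8 subunits of the cytosolic chaperonin, which folds actin and tubulin, ranged from -0.02 to 0.09 with a median of 0.03, and CCT8 had the highest value, 0.09 ± 0.111. The 11 mitochondrial chaperones and proteases other than the members had a median of 0.06, with 8 above 0 and 3 below. LONP1, a protease of the mitochondrial matrix, was at 0.16 ± 0.117 and the mitochondrial HSP90 TRAP1 at 0.13 ± 0.111. DNAJC19 and CLPB lay below 0, at -0.11 ± 0.123 and -0.09 ± 0.107. None of these passed the test.

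**Figure D3:**
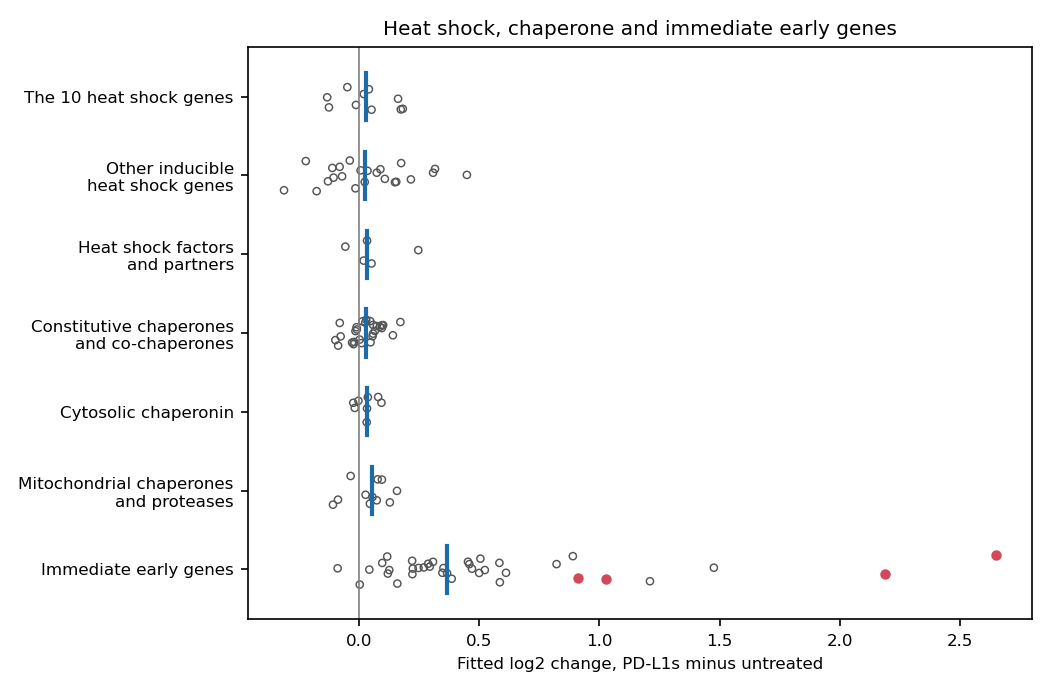
Fitted log2 change, PD-L1s minus untreated (horizontal axis), of each tested gene in 7 lists; filled red points passed the test, open points did not, and the blue bar is the list's median. The medians of the 6 heat shock and chaperone lists lie between 0.03 and 0.06, and that of the immediate early genes at 0.37.

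Levels differed between lines for 9 of the 10 members. Genes are compared here in CPM per kb of exonic length, as the median of 8 libraries. HSP90AA1 (268 CPM per kb), HSPB1 (263) and HSPA8 (234) led, at the 99.5 to 99.6 percentile of genes tested. HSPD1 (116) followed, then HSPE1 (41.1), HSPA1B (35.6), DNAJB1 (35.2), HSPA1A (30.1), BAG3 (18.9) and HSPH1 (15.9). The range over libraries was 8.70 to 1367 CPM per kb for HSPB1 but 197 to 322 for HSPA8. In the test of any difference between the 4 lines, 9 of 10 members were called by edgeR's quasi-likelihood test, where 86.3% of all genes were. HSPA8 was not (adjusted p = 0.0600). Each line has 2 libraries, 1 treated and 1 untreated, and in bulk samples more expressing cells and more RNA per cell cannot be told apart.

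**Figure D4:**
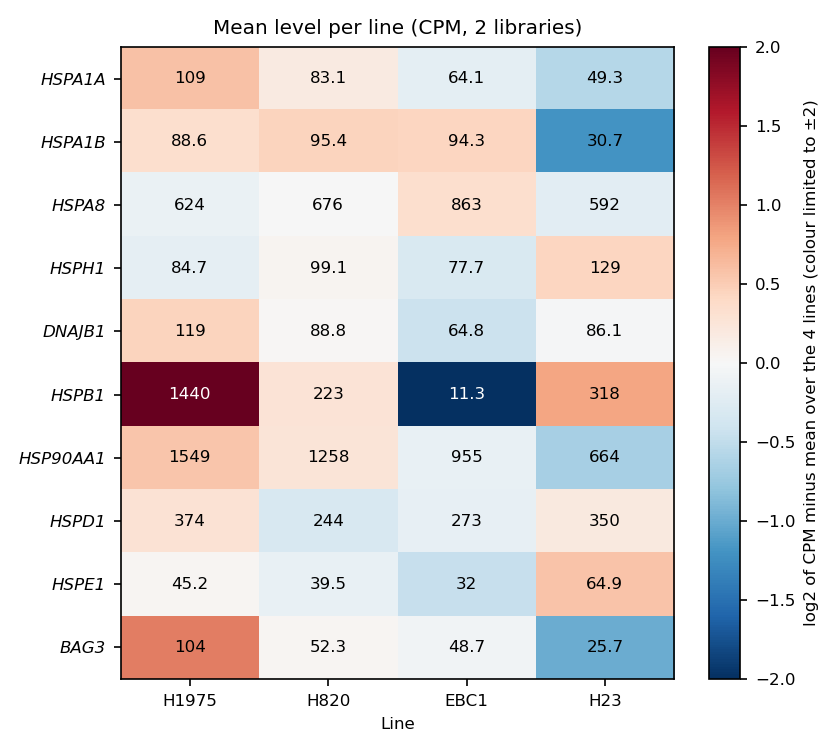
Mean CPM of each heat shock gene (rows) in each line (columns), printed in the cell from 2 libraries; the colour is the log2 of that mean minus the gene's mean over the 4 lines, limited to ±2. HSPB1 ranges from 1440 CPM in H1975 to 11.3 CPM in EBC1, and 6 of the 10 genes have their highest value in H1975.

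HSPB1 separated the lines most. It averaged 1440 CPM in H1975, 223 in H820, 11.3 in EBC1 and 318 in H23, with the 2 libraries of a line no further than 39.6 CPM from their mean. H1975 exceeded EBC1 by 6.97 ± 0.260 on the log2 scale (adjusted p 4.037e-13, edgeR's quasi-likelihood test). All 6 pairs of lines passed the test, in the order H1975, H23, H820, EBC1. The closest pair was H820 and H23, at -0.54 ± 0.196 (adjusted p 0.0258). This call was lost without the untreated H23 library (-0.25, adjusted p 0.486) or the untreated H820 library (-0.28, adjusted p 0.147). A pseudogene copy of HSPB1 is 97.3% alike over 256 bases of its transcript, so part of the counts could fall on either.

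BAG3 averaged 104 CPM in H1975, 52.3 in H820, 48.7 in EBC1 and 25.7 in H23. H1975 was 4.03-fold above H23 by the fit (2.01 ± 0.182, adjusted p 2.242e-08) and 1.99-fold above H820. H820 and EBC1 did not differ beyond their spread (adjusted p 0.630, edgeR's quasi-likelihood test). HSP90AA1 followed the same order with 1549, 1258, 955 and 664.5 CPM. Its neighbours H1975 and H820, and H820 and EBC1, did not pass the test, while EBC1 exceeded H23 by 0.52 ± 0.185 (adjusted p 0.0206), a call lost in 7 of 14 alternatives: without either library of H23, EBC1 or H1975, and with library size only, where the difference was -0.04. A pseudogene, HSP90AA2P, is 97.1% alike to HSP90AA1 over 2199 bases.

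The inducible HSP70 genes were lowest in H23. HSPA1A averaged 109 CPM in H1975, 83.1 in H820, 64.1 in EBC1 and 49.3 in H23, and each step of this order passed the test (adjusted p 0.0235 to 0.0324, edgeR's quasi-likelihood test). The step from H1975 to H820 lost its call in 5 of 13 alternatives, and those from H820 to EBC1 and from EBC1 to H23 in 8 each, mostly when a library was left out. With library size only, EBC1 against H23 was -0.19. HSPA1B averaged 88.6, 95.4, 94.3 and 30.7 CPM in the same lines. H1975, H820 and EBC1 did not differ in HSPA1B beyond their spread, and H1975 exceeded H23 by 1.53 ± 0.150 (adjusted p 6.715e-08). Summed, the pair gave 198, 178.5, 158.5 and 80.0 CPM, with EBC1 1.98-fold above H23 by the fit (adjusted p 1.769e-05) and no call among the higher 3 lines. The share of the pair's counts assigned to HSPA1B thus differed by line. It was 44.3% (Wilson 95% interval 42.7 to 45.8) in treated and 45.2% (43.8 to 46.6) in untreated H1975, and 55.2% (53.7 to 56.8) and 51.6% (48.5 to 54.6) in H820. In EBC1 it was 61.5% (59.8 to 63.0) in treated and 57.6% (54.2 to 60.9) in untreated spheres, and in H23 37.5% (35.1 to 39.9) and 39.2% (37.1 to 41.4). The intervals of a line's libraries overlapped, while those of H23 and EBC1 did not.

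DNAJB1 averaged 119 CPM in H1975, 88.8 in H820, 64.8 in EBC1 and 86.1 in H23, with H820 and H23 not apart (adjusted p 0.856, edgeR's quasi-likelihood test). HSPH1 had its highest mean in H23, with 84.7 CPM in H1975, 99.1 in H820, 77.7 in EBC1 and 129 in H23. H1975 was below H23 by -0.60 ± 0.144 (adjusted p 0.00137), a call lost without the untreated H23 (0.0632) or untreated H1975 library (0.0790). H1975 against H820 and against EBC1 did not pass the test. HSPA8 averaged 624, 676, 863 and 591.5 CPM in H1975, H820, EBC1 and H23. No neighbours in its order differed, and EBC1 against H23 was the sole called pair (0.55 ± 0.198, adjusted p 0.0229), lost in 4 of 14 alternatives: without either library of H23 or the treated one of EBC1, and with library size only (-0.02). The 2 libraries of H820 lay 144 CPM either side of their mean, and without the untreated or the treated one HSPA8 passed the test of any line difference (adjusted p 1.259e-05 and 8.115e-05).

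The mitochondrial pair did not keep a fixed ratio. HSPE1 averaged 45.2 CPM in H1975, 39.5 in H820, 32.0 in EBC1 and 64.9 in H23, and H1975 was below H23 by -0.52 ± 0.147 (adjusted p 0.00467, edgeR's quasi-likelihood test). That call was lost without the untreated H23 (0.0870) or untreated H1975 library (0.140). The steps from H1975 to H820 and from H820 to EBC1 did not pass. HSPD1 averaged 374, 244, 273 and 349.9 CPM in the same lines, and no neighbours in its order passed the test. EBC1 against H23 was near the threshold (-0.36 ± 0.172, adjusted p 0.0772, edgeR's quasi-likelihood test). It was called with RLE scaling (0.0460), a minimum count of 50 (0.0319) and library size only (8.8e-07). H1975 exceeded H820 by 0.62 ± 0.172 (adjusted p 0.00544), a call lost without the treated H1975 library. The ratio of HSPD1 to HSPE1 in CPM was 8.48 in treated and 8.05 in untreated H1975, 6.41 and 5.89 in H820, 9.50 and 7.72 in EBC1, and 4.98 and 5.78 in H23. The genes lie head to head on chromosome 2 and overlap by 169 bases on opposite strands, which the stranded counting kept apart. HSPD1P1 is 97.4% alike to HSPD1 over 1726 bases.

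Over all 6 pairs of lines, 41 of the 60 member comparisons were called, 68.3%, where 57.6% of all such comparisons were. H1975 had 6 members higher and 2 lower than H23, where 30.8% of genes were higher and 31.8% lower. Against EBC1 it had 7 higher and 0 lower (28.2% and 24.4% of genes), and against H820 5 higher and 0 lower (27.4% and 27.2%). H1975 was thus the lower line of a called pair in comparisons with H23 only, for HSPH1 and HSPE1. H820 had 4 higher and 4 lower than H23 (29.1% and 29.8%) and 4 higher and 0 lower than EBC1 (30.1% and 25.6%). EBC1 had 5 higher and 4 lower than H23 (28.3% and 33.0%). Of the 10 members, 6 had their highest mean in H1975, while 5 had their lowest in H23 and 4 in EBC1. The matching shares over all genes were not computed. HSF1 had another order: it averaged 52.8 CPM in H1975, 157 in H820, 85.0 in EBC1 and 122 in H23, lowest where 6 members were highest.

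The members did not share 1 profile. Over the 8 libraries, which are 4 pairs from shared lines, the Pearson r of log2 CPM between members had a median of 0.224 over 45 pairs, as a description. It was highest for HSPA1A with HSP90AA1 (0.976) and lowest for HSPA1B with HSPE1 (-0.877). Among the 8712 genes whose mean log2 CPM reached 4, the profile of summed HSPA1A and HSPA1B was most like FBXO32 (r = 0.998), PIP4K2A (0.997), APOL6 (0.997), PLSCR1 (0.996) and LIMA1 (0.996) over these 8 libraries. HSPA8 had less close neighbours, namely MAFG (0.924), EXOSC3 (0.914), MLYCD (0.890) and BTBD10 (0.882). The points share lines and libraries, so r is given without a test.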

How the data were processed

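RNA was measured by sequencing in 8 libraries of pneumospheres, 1 treated and 1 untreated for each of 4 lines, grouped by the labels. Per the labels' protocols, ribosomal RNA was depleted from total RNA and a stranded Illumina kit was used. The files as deposited hold raw, unscaled counts of fragments per gene. STAR 2.7.3a, featureCounts and Subread 2.0.0, with build GRCh37, are named in the submitters' processing notes. Exons of GENCODE release 28 (basic, lifted to GRCh37) were summed per gene on the reverse strand, per the file headers, which keep primary alignments that have both mates placed and reach a mapping quality of 1. A pair in several same-strand genes was counted for each.

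Counts were fitted with edgeR 4.0.16 in R 4.3.3 (quasi-likelihood F test, two-sided, TMM scaling, line plus treatment), after a filter at a minimum count of 10 that left 24185 of 60106 genes. Benjamini-Hochberg adjustment ran over all genes tested, with calls under 0.05. Lines were compared in the same fit, by an F test over lines and by 6 contrasts. CPM are counts relative to TMM-adjusted library totals. The line is the pair, per the labels: deviations of a line's libraries from their group means correlated at 0.891 to 0.965. Alternatives were other scaling, filters of low counts, DESeq2 1.42.0, no replicate block, lines or libraries left out, and HSPA1A and HSPA1B summed. The fit was also run on counts simulated from its own fitted means and dispersions. Each changed gene had the same fold in every line there, so responses that differ by line were not covered. Motifs were searched in RefSeq windows of 250 bases before to 50 after a start, and copies with blastn 2.17.0 among GENCODE release 29 transcripts, at 97% over at least 150 bases. Named genes were all 10 members, HSF1, HSF2, FOS, FOSB, EGR1 and DUSP1, up to 4 per other list by unadjusted p, and the 5 genes most like each of 2 profiles, of which 1 is not reported here. The members and lists were chosen with earlier results of these data known. HSPH1, DNAJB1, HSPA8 and BAG3 had no copy at that limit.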

Additional observations from a re-analysis of the deposited data

Results flagged for a closer look

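HSPA1B was flagged because 1 of 4 untreated libraries stood far from the others. It had 31.9 CPM in untreated H23, against 88.9 to 92.0 CPM in the other untreated lines, with a gap that was 0.949 of the group's range, past Dixon's 95% critical value for 4 samples. The treated H23 library was likewise lowest, at 29.5 CPM. Of 30 groups of 4 libraries or ratios tested, 1 was flagged, and chance flags about 1 in 20.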

How the results depend on the processing

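The count of members called for the treatment was 0 under all 13 alternatives, as was that of the other heat shock lists, and the members' median change ran from -0.05 with library size only to 0.08 with no filter. Signs of single members turned in up to 7 of 10 (H23 and H1975 only), none of them called. The count of immediate early genes called, 4, was 11 with no filter, 2 at a minimum count of 50, 0 with no replicate block, 11 in H23 and H1975 only, 8 in EBC1 and H820 only, and 2 to 6 when a line was left out (2 without EBC1). Within lines, library size only moved the members' median to -0.0733 in EBC1 and -0.0601 in H820, from 0.05 and 0.17, and the cause was not tested. The members called between lines were 8 to 10 over 14 alternatives. The called pairs of lines were 28 to 45 when 1 library was left out, against 41. Of these 41, 21 were called in every alternative, 20 were lost in at least 1, and 3 turned sign in 1: HSPA1A, HSPA8 and HSP90AA1 in EBC1 against H23. HSPD1 missed the test of any line difference without the treated H1975 library (adjusted p = 0.0653). Depth limits EBC1 and H820 most, where untreated libraries held 5894946 and 5559870 counts.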
